A study of Macaca mulatta with 24 samples.

Results

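The TAFA genes (formerly FAM19A1 to FAM19A5) encode small secreted proteins of the brain, and their signal was followed through single layers of the lateral geniculate nucleus (LGN) of monkeys reared with 1 eye deprived of vision. Members were all probe sets that the platform annotation maps to TAFA1 to TAFA5 or their older names. The annotation gave 3 such probe sets of 52766 on the array, 1 each for TAFA1, TAFA2 and TAFA3. It names none for TAFA4 and TAFA5, which were not analysed here. The family was selected on the signals of TAFA1 in deprived and nondeprived layers, which were already known. TAFA1 (as FAM19A1) is also listed by the study for magnocellular layers, from these same samples. Accordingly, differences between deprived and nondeprived parvocellular layers are described without a test for every member, as are those of TAFA1 in magnocellular layers.

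TAFA proteins are made mainly by neurons, share a set of conserved cysteines and are distantly related to chemokines. In mice, TAFA1 to TAFA4 bind neurexins, the presynaptic adhesion proteins that meet several other ligands across the synapse. Individual members have also been paired with G protein-coupled receptors: TAFA1 with CMKLR2 (GPR1), TAFA4 with formyl peptide receptors and TAFA5 with S1PR2. In the RefSeq annotation of the rhesus genome, TAFA1 and TAFA4 are neighbours with no other protein-coding gene between them. The LGN relays signals of the retina to the visual cortex, and each of its layers is driven by 1 eye only. Its parvocellular layers hold small relay cells that carry fine detail and colour, and its magnocellular layers hold large cells that carry motion and contrast.

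The samples came from 2 rhesus monkeys (Macaca mulatta) whose left eye was deprived of vision starting at birth. One animal had its lids closed by tarsorrhaphy and was studied at 4 months, and the other wore an opaque contact lens and was studied at 2 months. Duration, animal and method of deprivation therefore cannot be told apart. Both animals were deprived, and arrays of undeprived animals were not analysed here. From each of the 4 LGNs, layers 1 to 6 were captured by laser without the koniocellular layers, which gave 24 arrays. The deprived eye drives layers 2, 3 and 5 on its own side and layers 1, 4 and 6 on the opposite side. The groups were 8 deprived and 8 nondeprived parvocellular arrays (layers 3 to 6) and 4 deprived and 4 nondeprived magnocellular arrays (layers 1 and 2), all of the same 2 animals. Values are linear signals in arbitrary units, scaled on each array to a trimmed mean of 500.04. A probe set entered the tests when it reached a signal of 100 on at least 1 array, which held for 37623 probe sets and for 2 of the 3 TAFA probe sets.

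Several neuronal markers were measured on all arrays. The synaptic vesicle protein SYT1 had signals of 13585 to 26196 and TCF7L2, a transcription factor of thalamic neurons, 25950 to 39352. TCF7L2 was 1 of 3 listed markers of thalamic relay neurons. Of the others, SLC17A6 had no probe set and SLC17A7 had signals of 2.34 to 75.5, reaching 100 on 0 arrays. CAMK2A, a marker of koniocellular neurons, had signals of 4.08 to 175 and reached 100 on 1 array. On 23 arrays the ratio of 3′ to 5′ GAPDH signal, a measure of RNA integrity, was 1.97 to 14.3 and the mean correlation with the other arrays was 0.885 to 0.919. The array of deprived layer 2, ipsilateral, 2 months stood apart, with a ratio of 50.8 and a mean correlation of 0.811. Several results that include it are given with and without it.

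TAFA1 was high in deprived and low in nondeprived layers of both classes. In parvocellular layers it averaged 759.9 ± 341 in deprived and 173 ± 192 in nondeprived arrays (SD, n = 8 each). In magnocellular layers it averaged 359 ± 118 in deprived and 77.3 ± 46.2 in nondeprived arrays (SD, n = 4 each). All 12 deprived arrays read over 100, against 6 of the 12 nondeprived arrays. On the log2 scale the difference was 2.77 (SE 0.52, 95% interval 1.67 to 3.86) in parvocellular and 2.31 (SE 0.40, 1.42 to 3.20) in magnocellular layers. Both intervals are descriptions of the spread between layers of 2 animals, and do not allow for the choice of the family by these signals. Because an array measures pooled tissue of a layer, more cells with TAFA1 and more TAFA1 RNA per cell cannot be told apart.

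**Figure D1:**
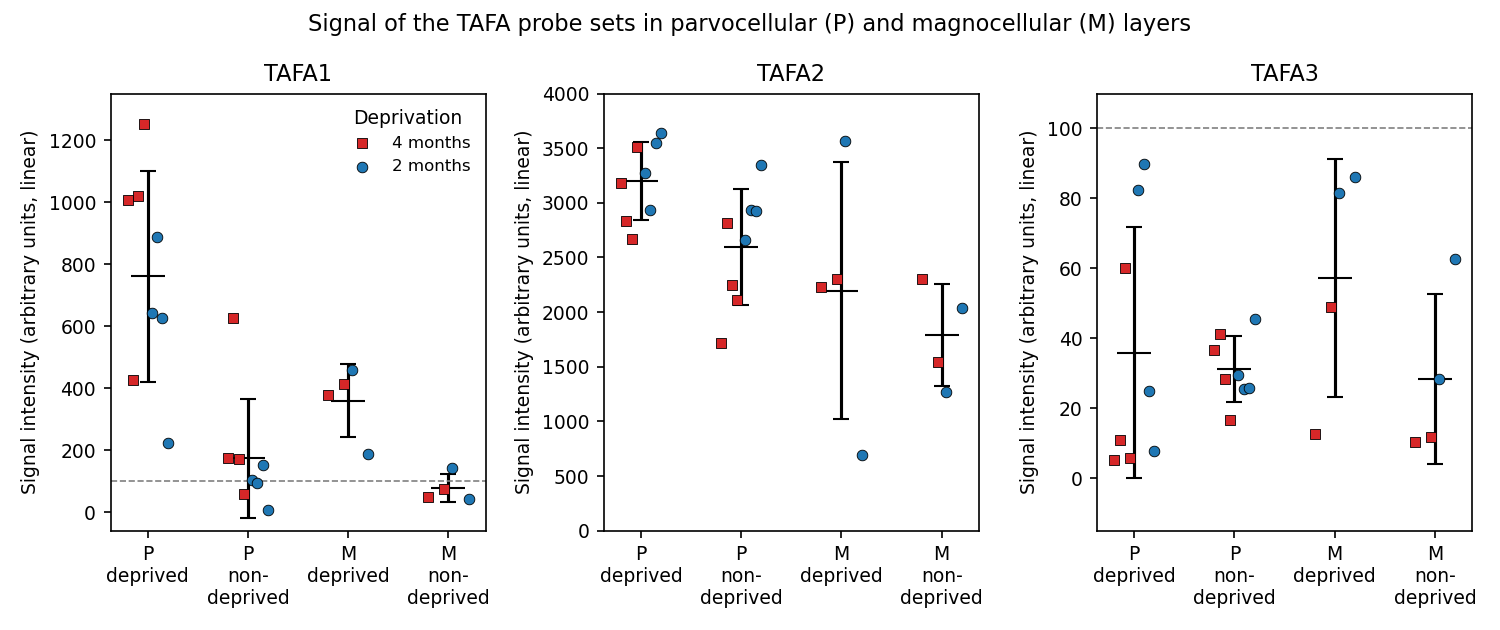
Signal (vertical axis, arbitrary units, linear) of TAFA1, TAFA2 and TAFA3 in deprived and nondeprived parvocellular (P) and magnocellular (M) layers. Each point is 1 array (squares 4 months, circles 2 months), the bars give the mean ± SD and the dashed line marks a signal of 100. In magnocellular layers all deprived TAFA1 signals lie above all nondeprived ones, as for 2.78% of the probe sets. TAFA2 lies between 691 and 3634 throughout, and TAFA3 stays under 100 on all 24 arrays.

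In the 4-month animal, deprived parvocellular layers had TAFA1 signals of 1018 in layer 3 and 1250 in layer 5 on the ipsilateral side, and of 1006 in layer 4 and 427 in layer 6 on the contralateral side. Its nondeprived parvocellular layers had 172 in layer 4 and 59.7 in layer 6 ipsilaterally, and 174 in layer 3 and 625.0 in layer 5 contralaterally. One nondeprived array, that of contralateral layer 5, thus lay within the deprived range. In the 2-month animal, deprived parvocellular layers had 625.0 in layer 3 and 224 in layer 5 on the ipsilateral side, and 642 in layer 4 and 886 in layer 6 on the contralateral side. Its nondeprived parvocellular layers had 152 in layer 4 and 5.89 in layer 6 ipsilaterally, and 102 in layer 3 and 94.0 in layer 5 contralaterally. The deprived arrays of this animal thus read 224 to 886 and the nondeprived arrays 5.89 to 152. How many probe sets were separated in this way was not counted.

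In magnocellular layers the deprived arrays had TAFA1 signals of 412 (layer 2, ipsilateral) and 378 (layer 1, contralateral) at 4 months, and of 189 (layer 2, ipsilateral) and 459 (layer 1, contralateral) at 2 months. The nondeprived arrays had 75.1 (layer 1, ipsilateral) and 48.5 (layer 2, contralateral) at 4 months, and 42.3 (layer 1, ipsilateral) and 143 (layer 2, contralateral) at 2 months. All 4 deprived arrays lay above all 4 nondeprived arrays, as they did for 1045 of 37623 probe sets (2.78%). The lowest deprived signal, 189, was that of the array that stood apart, and without it the deprived arrays averaged 416 ± 40.5 (SD, n = 3).

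Within an LGN, a deprived layer can be set against its nondeprived neighbour of the same class. In parvocellular layers TAFA1 was higher in the deprived layer in 7 of 8 such pairs, a count that 7.88% of the probe sets reached or exceeded. The ratios ran from 0.683 to 38.1 with a geometric mean of 6.80. The highest ratio had the lowest denominator, the signal of 5.89 in nondeprived layer 6. With signals under 50 set to 50 the geometric mean was 5.20. In magnocellular layers TAFA1 was higher in the deprived layer in 4 of 4 pairs, with ratios of 3.20 to 7.80 and a geometric mean of 4.97. How many probe sets were higher in 4 of 4 pairs at any ratio was not counted. The log2 difference was above 0 for 60.1% of them in these layers. A mean ratio of at least 1.7, with 6 of 8 pairs in parvocellular and 4 of 4 in magnocellular layers, was met by TAFA1 in both classes. It was met in both by 115 probe sets (0.306%), in parvocellular layers by 636 (1.69%) and in magnocellular layers by 2095 (5.57%).

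**Figure D2:**
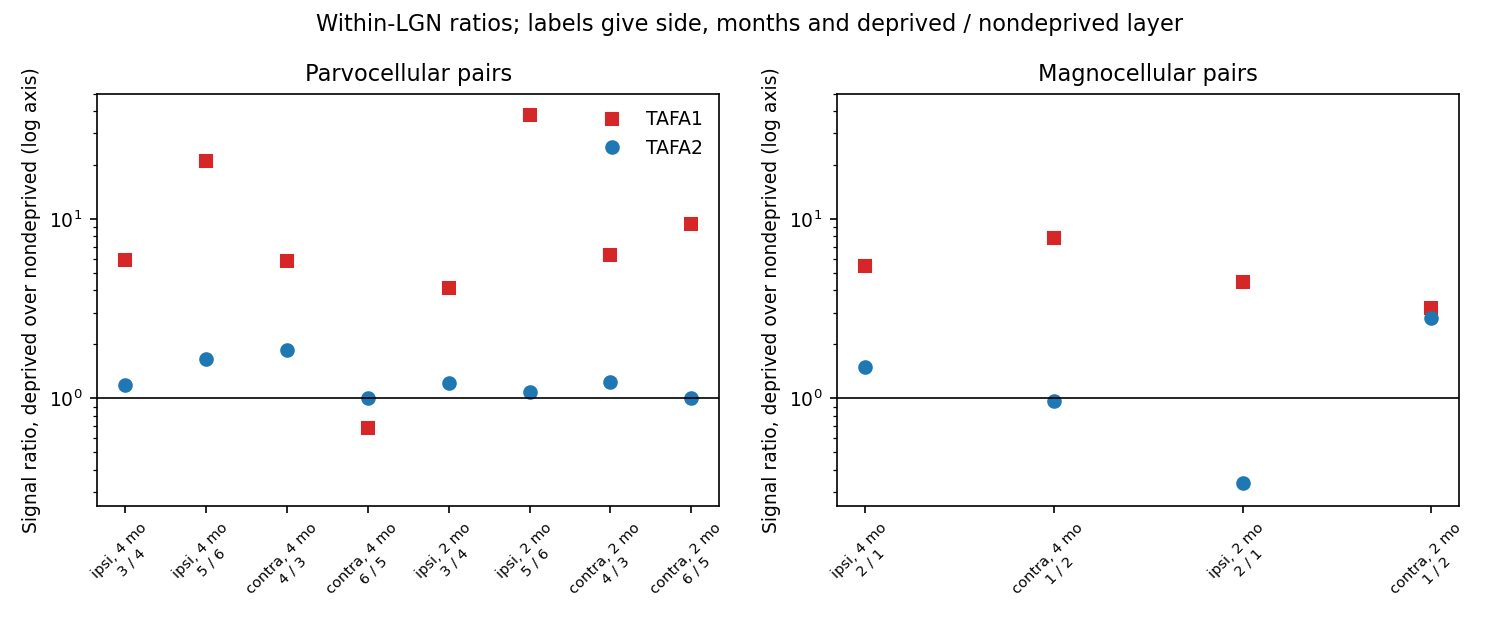
Ratio of the signal in a deprived layer to that in the neighbouring nondeprived layer of the same LGN (vertical log axis) for TAFA1 (squares) and TAFA2 (circles), by side, months of deprivation and layers. The line marks a ratio of 1. TAFA1 lies above it in all pairs but contralateral layer 6 over layer 5 at 4 months (0.683), and the TAFA2 ratios run from 0.339 to 2.80.

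The 1 exception was contralateral layer 6 over layer 5 at 4 months, with TAFA1 signals of 427 in the deprived and 625.0 in the nondeprived layer. For comparison, 200 probe sets with the lowest p-values for deprivation were taken from a fit without this pair, leaving out TAFA1, and 172 of them (86%) moved in the pair as in that fit. Across the 8 pairs, each treated likewise, this share ran from 77% to 98%. The median size of the movement, 0.36 on the log2 scale, was the smallest of the 8, next to 0.37 for layer 4 over layer 3 of the same LGN. That neighbouring pair had the lowest share, 77%, and a TAFA1 log2 ratio of 2.53. Without contralateral layers 5 and 6 at 4 months the log2 difference of TAFA1 in parvocellular layers was 3.24 (SE 0.50).

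TAFA2 was measured on all 24 arrays, with signals of 691 to 3634. In parvocellular layers the deprived arrays had a lowest, median and highest signal of 2668, 3225 and 3634, against 1713, 2735 and 3342 in the nondeprived arrays. The groups overlapped over much of their range, with means of 3199 ± 358 in deprived and 2594 ± 530 in nondeprived arrays (SD, n = 8 each). The log2 difference was 0.32 (SE 0.11, 95% interval 0.10 to 0.55), given as a description. TAFA2 was higher in the deprived layer in 8 of 8 pairs, as were 725 probe sets (1.93%). In 2 of these pairs, layer 6 over layer 5 of both contralateral LGNs, the ratio was no more than 1.01, and the highest was 1.86.

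In magnocellular layers TAFA2 had signals of 2300 and 2234 at 4 months and of 691 and 3561 at 2 months in deprived arrays. The nondeprived arrays had 1548 and 2300 at 4 months and 2036 and 1271 at 2 months. The deprived group contained both the lowest and the highest magnocellular signal, the lowest being that of the array that stood apart. The log2 difference was 0.11 (SE 0.42, 95% interval -0.82 to 1.05, limma adjusted p = 0.971), against a median of 0.13 over all probe sets. After scaling of each array to its median it was -0.17, against a median of -0.15. TAFA2 was higher in the deprived layer in 2 of 4 pairs. Without the array that stood apart the difference was 0.67 (adjusted p = 0.830), which then rests on the other 3 LGNs, since the model compares layers within an LGN. No probe set passed the adjusted threshold of 0.05 in this comparison (0 of 37623, 0%), with limma giving 2138 at an unadjusted p under 0.05. The difference between parvocellular and magnocellular layers in the deprivation effect on TAFA2 was 0.21 (SE 0.39, 95% interval -0.58 to 1.00, adjusted p = 0.936), and for TAFA1 it was 0.45 (SE 0.86, -1.33 to 2.23), given without a test.

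TAFA3 remained at low signals. It ranged from 5.10 to 89.7 across the 24 arrays and exceeded 50 on 6 of them. In parvocellular layers it ranged from 5.10 to 89.7 in deprived and from 16.6 to 45.5 in nondeprived arrays. In magnocellular layers it ranged from 12.7 to 86.1 in deprived and from 10.4 to 62.7 in nondeprived arrays. The groups overlapped in both classes. TAFA3 was higher in the deprived layer in 3 of 8 parvocellular pairs (ratios of 0.139 to 3.53) and in 4 of 4 magnocellular pairs (1.22 to 4.12). The share of probe sets with such counts was not taken, and 60.1% of those tested had a magnocellular log2 difference above 0. The geometric mean ratio was 0.677 in parvocellular and 2.11 in magnocellular layers. With signals under 50 set to 50 it was 1.17 and 1.22, so the parvocellular direction depended on the treatment of low signals. As no array reached 100, TAFA3 entered no fit.

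The deprivation effect was compared between the animals, the 4-month over the 2-month one, in parvocellular layers, as a description, since these signals chose the family. TAFA1 averaged 925 ± 351 in deprived and 258 ± 251 in nondeprived layers at 4 months, and 594 ± 274 in deprived and 88.4 ± 60.7 in nondeprived layers at 2 months (SD, n = 4 each). The difference in effect was -1.06 on the log2 scale (SE 1.04, 95% interval -3.25 to 1.12). It moved both ways with single arrays, being -0.05 without the nondeprived layer 6 array that read 5.89 and -1.93 without nondeprived layer 4, ipsilateral, 2 months (152). It was -0.70 without deprived layer 3, ipsilateral, 2 months, -0.44 without nondeprived layer 5, contralateral, 4 months, -0.57 without deprived layer 6 of the same LGN and -0.13 without both, and -1.62 without nondeprived layer 6, ipsilateral, 4 months. TAFA2 averaged 3050 ± 375 in deprived and 2222 ± 455 in nondeprived layers at 4 months, and 3348 ± 315 in deprived and 2966 ± 282 in nondeprived layers at 2 months (SD, n = 4 each), with a difference in effect of 0.30 (SE 0.21, -0.15 to 0.74). This was 0.16 without nondeprived layer 3, contralateral, 4 months, and 0.45 without contralateral layers 5 and 6 at 4 months. The limma fit called 0 of 37623 probe sets (0%) in this comparison, and 1465 at an unadjusted p under 0.05.

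**Figure D3:**
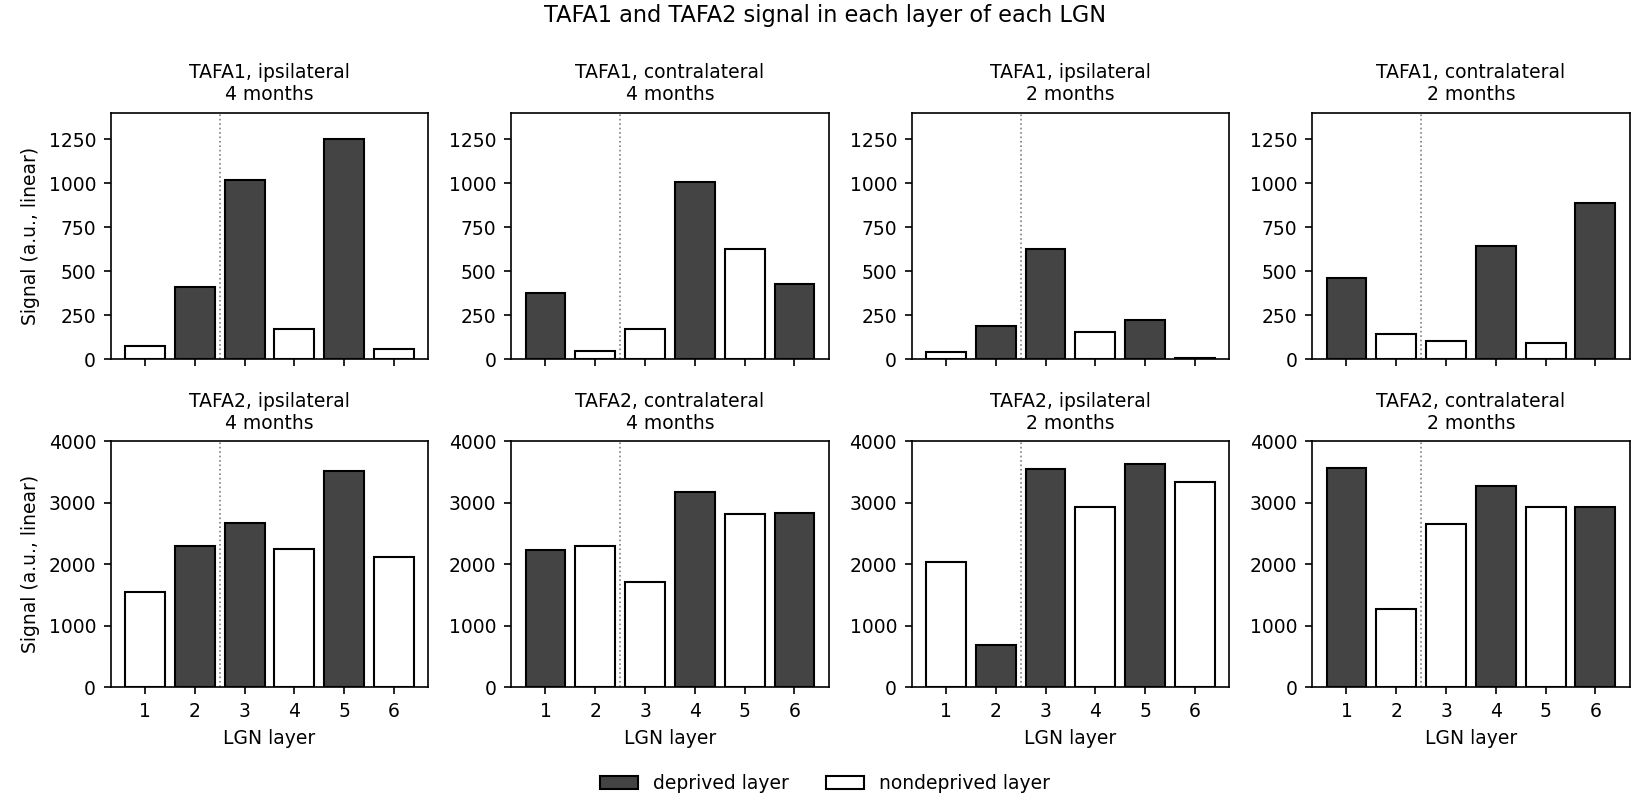
Signal (vertical axis, arbitrary units, linear) of TAFA1 (upper row) and TAFA2 (lower row) in layers 1 to 6 of each LGN. Each bar is 1 array, filled for deprived and open for nondeprived layers, and the dotted line separates magnocellular layers 1 and 2 from parvocellular layers 3 to 6. TAFA1 bars alternate with the eye that drives the layer, except in contralateral layers 5 and 6 at 4 months (625.0 and 427).

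Between layer classes, TAFA2 averaged 2896 ± 537 in parvocellular (SD, n = 16) and 1993 ± 856 in magnocellular arrays (SD, n = 8). The log2 difference was 0.65 (SE 0.19, 95% interval 0.25 to 1.05) with a limma adjusted p of 0.0596, so that TAFA2 was not called. The threshold of 0.05 was passed by 1355 of 37623 probe sets (3.6%), of which 846 were higher (2.25%) and 509 lower (1.35%) in parvocellular layers. After median scaling these numbered 647 and 142. Within the 4 LGNs the TAFA2 difference was 0.45 (ipsilateral) and 0.18 (contralateral) at 4 months, and 1.50 (ipsilateral) and 0.47 (contralateral) at 2 months. It was positive in 4 of 4 and largest in the LGN of the array that stood apart. Without that array it was 0.37 (adjusted p = 0.0974). Without nondeprived layer 2, contralateral, 2 months, it was 0.54, with the highest adjusted p of any array left out (0.171). That array had a GAPDH ratio of 14.3. Leaving out 1 of 3 other arrays moved TAFA2 past the threshold, with 0.81 (adjusted p = 0.0118) without deprived layer 1, contralateral, 2 months, 0.72 (adjusted p = 0.0399) without deprived layer 2, ipsilateral, 4 months, and 0.70 (adjusted p = 0.0380) without nondeprived layer 3, contralateral, 4 months.

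TAFA1 averaged 466.4 ± 404 in parvocellular (SD, n = 16) and 218 ± 172 in magnocellular arrays (SD, n = 8). Its log2 difference was 0.76 (SE 0.43, 95% interval -0.13 to 1.65, adjusted p = 0.399), and 0.82 (adjusted p = 0.445) without the array that stood apart. Within the LGNs it was 0.94 (ipsilateral) and 1.78 (contralateral) at 4 months, and 0.24 (ipsilateral) and 0.08 (contralateral) at 2 months. All 4 values were above 0, and both 4-month values were above both 2-month values.

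By single layer, TAFA1 in deprived layers averaged 418 in layer 1, 300.4 in layer 2, 822 in layer 3, 824 in layer 4, 737 in layer 5 and 656 in layer 6, over 2 arrays each. In nondeprived layers it averaged 58.7 in layer 1, 95.9 in layer 2, 138 in layer 3, 162 in layer 4, 360 in layer 5 and 32.8 in layer 6. In the order of deprived levels (4, 3, 5, 6, 1, 2) the arrays of neighbouring layers overlapped at each step. The arrays of deprived layers 3 and 4 read 625.0 to 1018, and those of deprived layers 1 and 2 read 189 to 459. How many probe sets were separated likewise was not counted. TAFA2 over all 4 arrays of a layer averaged 2345 ± 861 in layer 1, 1640 ± 798 in layer 2, 2647 ± 750 in layer 3, 2907 ± 462 in layer 4, 3224 ± 410 in layer 5 and 2807 ± 513 in layer 6 (SD, n = 4 each), and neighbours in the order of its levels (5, 4, 6, 3, 1, 2) did not differ beyond these SDs.

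Outer parvocellular layers 5 and 6 were tested against inner layers 3 and 4. For TAFA1 the log2 difference was -0.80 (SE 0.51, 95% interval -1.87 to 0.26, limma adjusted p = 0.635), with means of 447 ± 445 in outer and 486 ± 388 in inner layers (SD, n = 8 each). It was -0.33 without the nondeprived layer 6 array that read 5.89, -0.50 without nondeprived layer 4, ipsilateral, 2 months, and -1.25 (adjusted p = 0.482) without nondeprived layer 5, contralateral, 4 months. The 4-month animal alone gave -0.15 and the 2-month animal alone -1.45 (adjusted p = 0.406). For TAFA2 it was 0.13 (SE 0.11, -0.09 to 0.36, adjusted p = 0.717), with means of 3015 ± 484 in outer and 2777 ± 593 in inner layers. After median scaling it was 0.41 (adjusted p = 0.191), against a median over all probe sets of 0.18, in place of -0.10. Single arrays left out gave 0.06 to 0.18 for TAFA2, with 0.06 without nondeprived layer 3 and 0.09 without nondeprived layer 5, both contralateral at 4 months. In magnocellular layers, layer 1 minus layer 2 was 0.0069 for TAFA1 (SE 0.45, -0.98 to 1.00, adjusted p = 1.00) and 0.61 for TAFA2 (SE 0.40, -0.27 to 1.48, adjusted p = 1.00). Without deprived layer 2, ipsilateral, 2 months, which stood apart, these were -0.07 for TAFA1 and 0.08 for TAFA2. For TAFA2 the difference was 0.23 without a contralateral 2-month array, 1.14 without an ipsilateral 4-month array (adjusted p = 0.442 or 0.457, by the layer left out) and 0.99 without a contralateral 4-month array (adjusted p = 0.944 or 0.940). The limma fits called 0 of 37623 probe sets (0%) in either comparison, and 3377 and 1142 at an unadjusted p under 0.05. Without 1 contralateral magnocellular array at 4 months, 177 (deprived layer 1) or 178 (nondeprived layer 2) were called between layers 1 and 2.

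**Figure D4:**
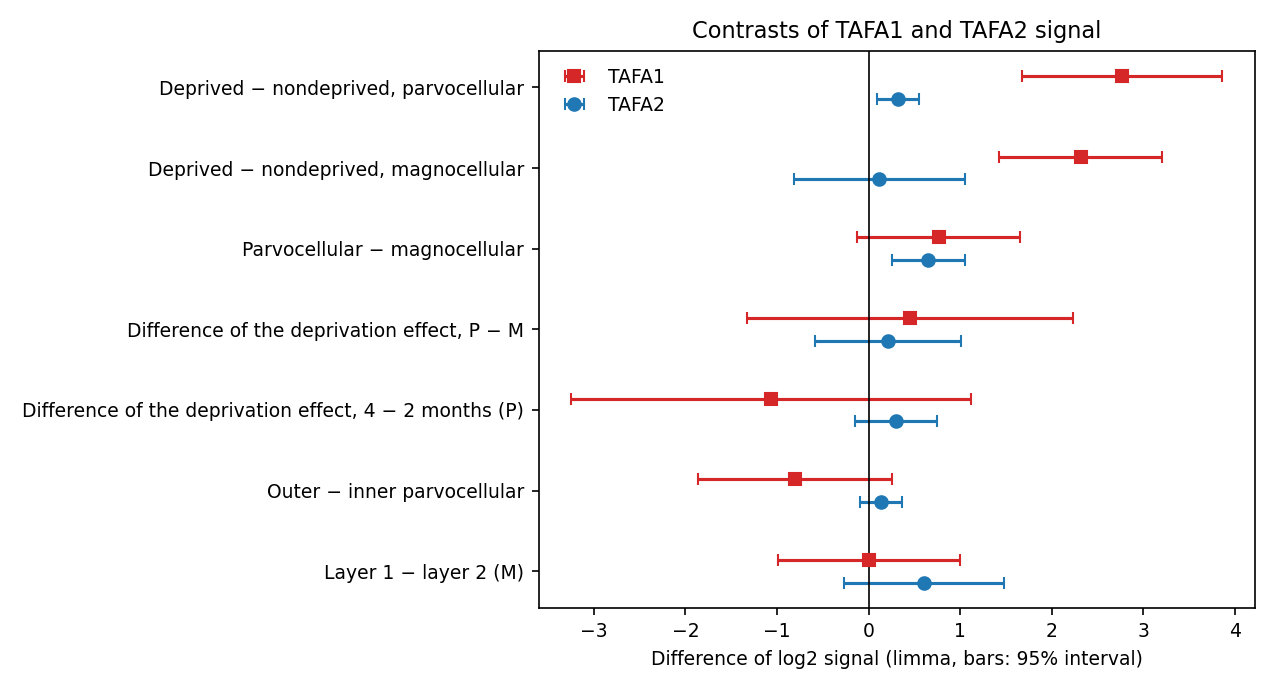
Differences of log2 signal (horizontal axis) for TAFA1 (squares) and TAFA2 (circles) in each comparison, from limma with the LGN as a block. Bars are 95% intervals, and the line marks 0. TAFA1 lies above 0 in both deprivation comparisons (2.77 and 2.31), which are descriptions. Their intervals do not allow for the choice of the family by these signals. TAFA2 had its largest tested difference between parvocellular and magnocellular layers (0.65).

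Among genes whose products TAFA proteins are known to meet, NRXN3, a neurexin, had signals of 2585 to 6450. Its log2 difference was -0.05 (SE 0.09, limma adjusted p = 0.901) between deprived and nondeprived parvocellular layers, -0.10 (SE 0.32, adjusted p = 0.965) in magnocellular layers and 0.05 (SE 0.13, adjusted p = 0.886) between the classes. The probe set of NRXN2 did not exceed 84.8 and was not tested. S1PR2, the sphingosine phosphate receptor paired with TAFA5, had signals of 8.84 to 163 and LRRC4B, a synaptic adhesion protein that binds TAFA5, did not exceed 60.2. The S1PR2 difference was -0.19 (SE 0.46, adjusted p = 0.928) in parvocellular and -0.17 (SE 0.64, adjusted p = 0.971) in magnocellular layers.

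Of 26 listed neurexin ligands and synaptic organizers, such as neuroligins, LRRTMs, cerebellins and neurexophilins, 17 were tested. None of the 17 was called between deprived and nondeprived parvocellular layers, against 365 of 37623 probe sets (0.97%; 220 higher, 0.585%, and 145 lower, 0.385%). After median scaling 18 were higher and 7 lower. At an unadjusted p under 0.05 there were 4302 among all probe sets. The median log2 difference of the 17 was 0.09 in parvocellular layers, against -0.01 over all probe sets, and 0.04 in magnocellular layers, against 0.13 over all. Between the classes 2 of the 17 were higher and 0 lower in parvocellular layers, against 2.25% higher and 1.35% lower over all probe sets. LRRTM4, a postsynaptic leucine-rich repeat protein, ranged from 129 to 292 in parvocellular and from 54.2 to 165 in magnocellular arrays. Its difference was 0.98 (SE 0.19, adjusted p = 0.00218). C1QL2, a secreted C1q-domain protein, ranged from 28.2 to 292 in parvocellular and from 19.2 to 199 in magnocellular arrays, with a difference of 1.31 (SE 0.30, adjusted p = 0.0107). Both ranges overlapped between the classes, and with the 2-month animal alone neither gene was called (adjusted p = 0.272 for LRRTM4 and 0.217 for C1QL2). With the 4-month animal alone C1QL2 was not called (adjusted p = 0.136). Of 5 brain chemokines 3 were tested (CX3CL1, CXCL12 and CCL2), and 0 were called in the deprivation and class comparisons.

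Some markers of other cells moved with deprivation beside TAFA1. In parvocellular layers the log2 differences were above 0 for 4 of 5 measured astrocyte markers (median 0.23), and 1 of the 5 was called. This was GFAP, an astrocyte intermediate filament, with signals of 3470 to 13219 in deprived layers, against 2616 to 4165 in nondeprived layers (log2 difference 1.07, SE 0.21, limma adjusted p = 0.0184). The GFAP call was lost without nondeprived layer 5, contralateral, 2 months (adjusted p = 0.0521) and under 5 of 12 other alternatives. The summed signal of the 5 markers over parvocellular arrays was 27905 to 61589 where deprived, against 28761 to 46235 where nondeprived. In the same layers the log2 differences were above 0 for 7 of 7 microglial (median 0.26) and 3 of 3 oligodendrocyte markers (0.16). They were above 0 for 2 of 2 oligodendrocyte precursor markers (0.22) and 0 of 4 neuronal markers (-0.16). The tested markers of single neuron classes were above 0, with TCF7L2 at 0.12, GAD1 at 0.29, GAD2 at 0.18 and CAMK2A, of low signal, at 0.47. Vessel markers were above 0 for 2 of 4, and the blood marker HBB was at 0.18. None of these was called, and 48.7% of all probe sets were above 0. In magnocellular layers the difference of GFAP was 0.81 (adjusted p = 0.836). GFAP was the only one of 30 markers of 10 cell types called in either deprivation comparison. In magnocellular layers the 2 markers of inhibitory neurons, GAD1 and GAD2, summed to 18450 to 24464 in deprived arrays, against 14408 to 16724 in nondeprived arrays. These summed ranges did not overlap, and 1045 single probe sets (2.78%) had all deprived above all nondeprived magnocellular arrays. GAD1 alone overlapped, with 16015 to 24134 in deprived and 14203 to 16324 in nondeprived arrays. The deprived arrays include the one that stood apart, and the sum was not taken without it. Neither gene was called by limma (adjusted p = 0.837 for GAD1 and 0.836 for GAD2). In parvocellular layers they summed to 9469 to 16045 in deprived arrays, against 9296 to 14867 in nondeprived arrays. The part of these markers in the TAFA1 values was not tested.

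Between the classes, GAD1 (log2 difference -0.56, adjusted p = 0.00213), the neurofilament NEFH (-0.66, adjusted p = 0.00229) and the microglial marker CD68 (-0.46, adjusted p = 0.0294) were lower in parvocellular layers. The oligodendrocyte marker MAL was higher (0.71, adjusted p = 0.00379). Other markers of the same cell types were mixed. MBP was at -0.08 and CNP at -0.25 beside MAL, and GAD2 was at 0.40 beside GAD1. These 3 were not called. Of 7 microglial markers 3 were above 0 and 4 below, and of 4 neuronal markers 2 were above and 2 below. The GAD1 call was lost with median scaling (adjusted p = 0.131) and in the 4-month (0.135) and 2-month (0.0878) animals alone, and the NEFH (0.213) and MAL (0.232) calls in the 2-month animal alone. The CD68 call was lost (adjusted p = 0.0502 to 0.0913) without any 1 of 5 arrays, which were contralateral layers 1, 2 and 6 and ipsilateral layer 1 at 4 months and contralateral layer 1 at 2 months, and under 5 of 11 other alternatives. Their part in the TAFA2 level was not tested.

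TAFA1 was among the most variable probe sets of the LGN. Its SD over 24 arrays was 1.84 on the log2 scale, greater than that of 99.6% of the probe sets tested. This spread includes the difference between deprived and nondeprived layers for which the family was chosen, so the rank is only a description. The SD of TAFA2 was 0.56 (greater than 43.5%). The Pearson correlation of TAFA1 with TAFA2 over the 24 arrays was 0.25, and -0.08 after the mean of each of the 4 groups was subtracted. Without the array that stood apart it was 0.32, with no group means subtracted. Of 14556 probe sets with a single gene symbol and a mean signal of at least 100, that of ALDH1A2, an enzyme of retinoic acid synthesis, was most like TAFA1 (r = 0.83). It was followed by CHRNA7, a nicotinic acetylcholine receptor subunit (0.80), PAK5, a protein kinase (0.77), MRTFB, a transcriptional coactivator (0.76), and TSEN15, a subunit of the tRNA splicing endonuclease (0.75). The 24 arrays share animals, LGNs and deprivation states, and after subtraction of the group means the correlations were 0.55, 0.63, 0.53, 0.37 and 0.66 in the same order.

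In parvocellular layers ALDH1A2 had signals of 153 to 1004 where deprived, against 9.17 to 496 where nondeprived. In magnocellular layers it had 110 to 323 where deprived, against 9.78 to 68.5 where nondeprived. Its highest nondeprived signal, 496, fell on the array of layer 5, contralateral, 4 months, on which TAFA1 also had its highest nondeprived signal. CHRNA7 (3992), PAK5 (1033), MRTFB (3885) and TSEN15 (243) had their highest nondeprived parvocellular signals on that array as well. These genes were chosen for their likeness to TAFA1 across all 24 arrays, this one included, so that the shared peak is a description.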

How the data were processed

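The authors extracted RNA from laser-captured layers, amplified it in 2 rounds, hybridized it to the Rhesus Macaque Genome Array and computed signals with GCOS. The deposited values are linear signal intensities per probe set, 1 column per array. The file held 52865 probe sets, including 99 controls, and gene symbols came from the platform annotation.

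Signals under 1 were set to 1 before log2. Models were fitted with limma 3.58.1 in R 4.3.3 (eBayes with trend), with the LGN as a block and Benjamini-Hochberg adjustment over 37623 probe sets, and were tested on simulated data. P-values measure the spread between layers of 4 LGNs of 2 animals. The number of arrays limits the precision. Members and lists (neurexins, receptors, neurexin ligands, chemokines, cell markers) were chosen with earlier results of these data known. Named were all members, neurexins, receptors, list genes past the threshold, and the 5 genes most correlated with TAFA1. A gene with several probe sets was represented by the one with the highest mean log2 signal.

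Alternatives were other scalings, floors, filters, variance models and blocks, each array left out, each animal alone and a fold rule. Chosen after seeing the data was the omission of contralateral layers 5 and 6 at 4 months.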

Additional observations from a re-analysis of the deposited data

Results flagged for a closer look

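One value lay far from the others of its group. In nondeprived parvocellular layers, TAFA1 had a signal of 625.0 in layer 5 of the contralateral LGN at 4 months, while the other 7 arrays of the group read 5.89 to 174. Its gap to the nearest array was 0.729 of the whole range of the group. Of 12 groups of TAFA1, TAFA2 and TAFA3 signals checked in this way, 1 held such a value, and chance gives about 1 in 20 groups where values are normally distributed, which was not tested here.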

How the results depend on the processing

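Of 370 values of 14 TAFA1 and TAFA2 differences under alternatives, 353 kept their direction and side of the threshold or, where no test was made, stayed within 1 SD. The TAFA1 difference between deprived and nondeprived layers was 2.23 to 3.30 in parvocellular and 1.92 to 2.71 in magnocellular layers, where each animal alone gave 2.71 (4 months) and 1.92 (2 months). With an array left out it was 2.26 to 3.11 in parvocellular and 2.10 to 2.53 in magnocellular layers. The TAFA2 difference in magnocellular layers reversed with median scaling (-0.17) and in the 2-month animal alone (-0.037), and ran from -0.34 to 0.67 with an array left out. TAFA2 between the classes passed the threshold with a mean signal of 100 or more as the filter (0.65, adjusted p = 0.0450, fewer probe sets tested), and ran from 0.37 to 0.81 with an array left out. In the 4-month animal alone it was 0.32 and in the 2-month animal alone 0.98. The difference in deprivation effect between the classes was -0.35 to 0.53 for TAFA2 and -0.04 to 0.85 for TAFA1 with an array left out, the reversal of TAFA2 arising without the array that stood apart. Layer 1 minus layer 2 was -0.31 to 0.33 for TAFA1 and 0.08 to 1.14 for TAFA2. The cause of these changes was not tested.

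Layer numbers recur in both LGNs of an animal, and same-numbered layers correlated at 0.0185 to 0.411 after removal of group means, so that they were not treated as pairs. With layer number within each animal as the replicate block, the values were 2.77 and 2.31 for TAFA1 and 0.32 and 0.11 for TAFA2 in parvocellular and magnocellular layers, of which only TAFA2 in magnocellular layers was tested (adjusted p = 0.893). Probe sets called between deprived and nondeprived parvocellular layers numbered 365 in the main fit and 133 with this block. They numbered 25 with median scaling, 15 without a trend and 598 with the filter on the mean. Quantile normalization gave 386, log2 of the signal plus 16 gave 421, signals under 50 set to 50 gave 311 and no filter gave 339. With the animal as the block there were 306, and without contralateral layers 5 and 6 at 4 months 268. They numbered 1 in the 4-month and 7 in the 2-month animal alone, and 136 to 457 with an array left out. Between the classes 1355 were called, 960 to 1872 with an array left out, 789 with median scaling, 856 without contralateral layers 5 and 6 at 4 months, 368 in the 4-month and 222 in the 2-month animal alone. In magnocellular layers 0 were called between deprived and nondeprived arrays, 1 with this block and 46 in the 4-month animal alone.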
